A study of Mus musculus with 4 samples.

Results

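Ubiquitin conjugating (E2) enzymes, whose gene symbols start with Ube2, and ubiquitin-specific proteases, whose symbols start with Usp, were followed through the last stages of red cell formation in the mouse fetal liver. Members were the symbols of the deposited files that match these name patterns, with Ube2c, Ube2o, Ube2l6 and Ube2h set aside, which left 30 Ube2 and 49 Usp symbols, 79 of the 19564 in all. Erythroblasts of E14.5 livers had been sorted by TER119, an erythroid surface antigen, and CD71, the transferrin receptor. R2 holds proerythroblasts and early basophilic cells, R3 early and late basophilic cells, R4 mainly polychromatophilic and orthochromatophilic cells, and R5 late orthochromatophilic cells with reticulocytes, the cells that have lost their nucleus. All 4 were freshly sorted and uncultured, and the labels used here name no strain, allele, agent, sex or number of embryos. Each population is 1 library of polyadenylated RNA, so no difference below has a replicate check and none has a p-value.

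Ubiquitin is passed from an E1 activating enzyme to an E2 and, usually with an E3 ligase, onto a target protein. The E2 largely sets which chain linkage is built. A few E2 enzymes carry ubiquitin-like proteins such as NEDD8. USP enzymes are cysteine proteases that take ubiquitin off again, and they form the largest deubiquitinase family. Red cell precursors break down most of their proteins and organelles as they mature, and the ubiquitin system is a known part of that remodelling.

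Values are RPKM, reads scaled to library size and to a gene length that is not given. Genes are set side by side within a library with the caution that this length may be wrong for some. Ratios between populations are log2 ratios of RPKM + 1, a scale that understates the change of low genes. Plain folds of RPKM come with a 95% exact binomial interval for counting error, built on reads estimated from the shortest coding transcript and the library size that the value steps imply (20700000 to 27400000 reads). Globin transcripts made up 5.52% of summed RPKM in R2 and 59.4%, 80.4% and 81.9% in R3, R4 and R5, and a larger globin share takes RPKM from every other gene. For R5 against R2 the all-gene median was -1.65 as deposited. With libraries scaled by the median of gene ratios (median scaling) it was -0.42. With globin genes removed, and the remaining RPKM of each library scaled to the same sum, it was -0.68. Differences below are read against the all-gene median of the same comparison. Granulocyte markers summed to 6025, 418, 232 and 463 RPKM from R2 to R5, with 9 of 9 detected in every library. Their part in any difference from R2 was not tested, so R5 is also set against R3.

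Erythroid markers, 8 of 8 detected in each library, summed to 2558 RPKM in R2 and 34210, 52495 and 50642 in R3, R4 and R5. Most of each sum was Hbb-b1, at 1731, 29661, 47348 and 46936 RPKM from R2 to R5. In R5 against R2, 4 of the 8 were higher by 2-fold or more, against 2.74% of all genes. Klf1 was level, at 255 RPKM in R5 and 254 in R2. Lower in R5 than in R2 were Gata1 (90.5 and 120 RPKM), Epor (109 and 144) and Tfrc (32.8 and 52.1). From R2 to R5, hepatocyte markers summed to 181, 456, 157 and 343 RPKM, macrophage markers to 89.4, 48.9, 20.3 and 48.5, megakaryocyte markers to 38.2, 43.3, 23.0 and 67.3, lymphoid markers to 26.1, 2.09, 1.22 and 2.53, and endothelial markers to 8.24, 3.92, 1.65 and 3.36. The measured markers of these lists were detected in every library, except 1 of 5 lymphoid markers, which was listed at 0 in each. Their part in the results was not tested. Fewer cells of a type and less RNA per cell cannot be told apart in such sorted bulk samples. For 10 members an exon overlapped one of another coding gene by at least 100 bases, Ube2s, Ube2e1, Ube2l3, Ube2v1, Ube2g2, Usp14, Usp16, Usp30, Usp37 and Usp49, and whether counting used strand is not given, so their values may hold reads of the neighbour.

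Of the 79 symbols, 65 reached 1 RPKM in at least 1 library, 26 of the Ube2 genes and 39 of the Usp genes. Of these, 3 Ube2 and 4 Usp genes reached it in R2 alone, so that they could hardly be other than highest there. The other 14 stayed under 1 RPKM throughout. They were Ube2e2, Ube2v2, Ube2dnl and Ube2u, with Usp2, Usp13, Usp26, Usp27x, Usp29, Usp43, Usp50, Usp51, Usp53 and Usp9y, and Ube2dnl, Ube2u, Usp26 and Usp9y were listed at 0 in all 4. A listed 0 is not read as absence. Some symbols match by name alone, since Ube2cbp encodes an E2-binding protein, Usp6nl a Rab GTPase-activating protein and Usp52 (also Pan2) a subunit of a poly(A) nuclease.

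Among the 30 Ube2 symbols kept, a single gene dominated, while the Usp family had no such gene. Ube2s, the E2 that extends Lys11-linked chains for the anaphase-promoting complex, was at 416, 512, 514 and 598 RPKM from R2 to R5. It was the highest member in every library and held 38.2%, 59.3%, 68.4% and 69.4% of the summed Ube2 RPKM. Its exons overlap those of Rpl28, a ribosomal protein gene, by 183 bases, so its level may hold reads of that gene. Among all symbols it ranked 103rd in R2, 57th in R3, 37th in R4 and 37th in R5. Of the 4 genes set aside, Ube2l6 was also at 514 RPKM in R4, and Ube2c was at 446 in R5. The shares of Ube2s thus hold only with those genes left out. No Usp gene held more than 12.2% of its family's sum in any library, and the leading one was Usp10 in R2, Usp7 in R3, Usp32 in R4 and Usp4 in R5.

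With the 4 genes set aside left out of the sums, the Ube2 sum was the larger by more in later libraries. Those 4 genes summed to 203, 929, 1343 and 1053 RPKM from R2 to R5. Summed Ube2 RPKM was 1090, 863, 751 and 863 in R2, R3, R4 and R5. Summed Usp RPKM was 676, 453, 265 and 229. Within a library, where no scaling between libraries enters, the ratio of the Ube2 to the Usp sum was thus 1.61, 1.91, 2.83 and 3.76 from R2 to R5. Without Ube2s the ratio was 0.996, 0.775, 0.895 and 1.15, so that the ratio in R3 and R4 was then below that in R2. The ratio of the family medians over members past 1 RPKM was 1.70, 1.62, 1.69 and 2.43 in the same order, higher in R5 than in the earlier libraries.

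**Figure D1:**
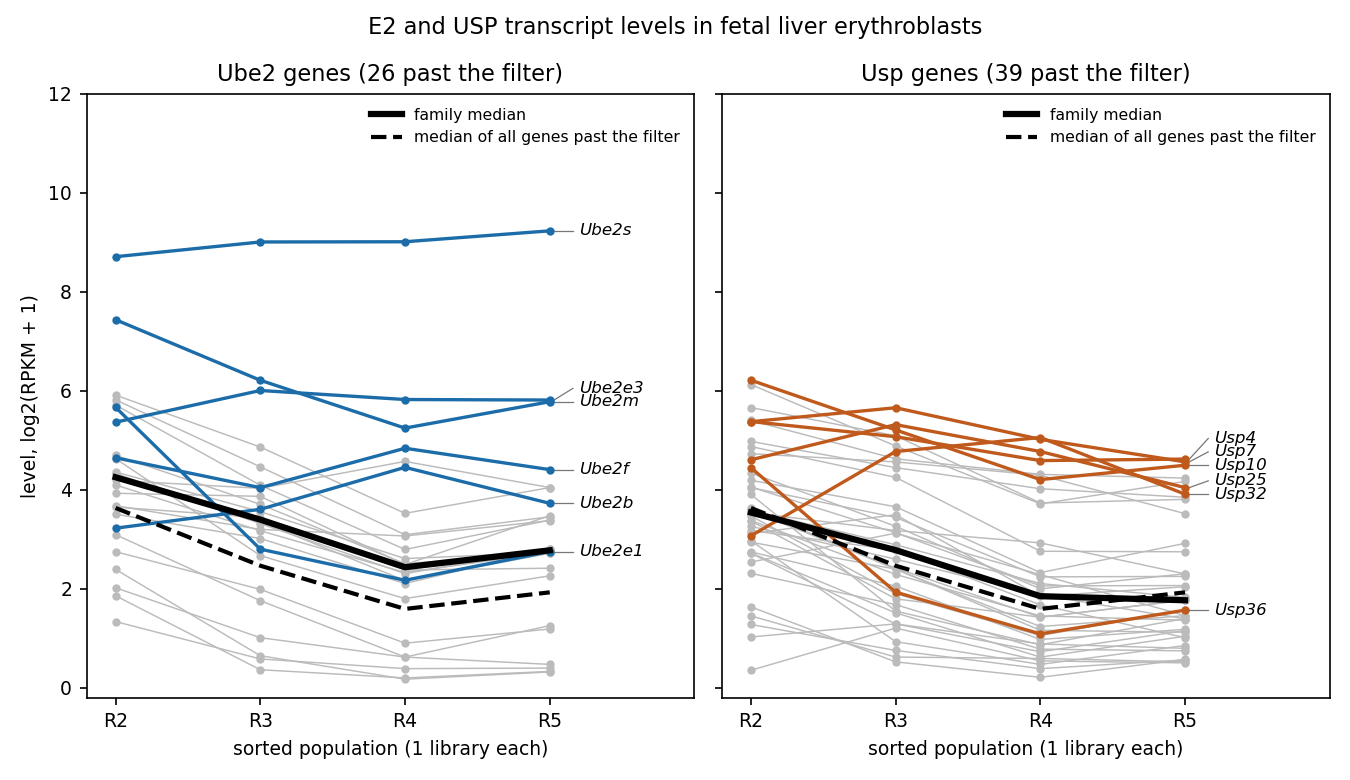
Level of each member past 1 RPKM, as log2(RPKM + 1), in the 4 sorted populations (1 library each), for 26 Ube2 genes (left) and 39 Usp genes (right). Thick black lines are family medians and dashed lines the median of all 9942 genes past the same limit; Ube2s lies far above the others, with 598 RPKM in R5 and 416 in R2, and Usp32 reaches 32.3 RPKM in R4.

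R5 against R2 spans the whole course. A ratio of 2-fold or more was counted as higher or lower. As deposited, 0 of 26 Ube2 genes and 0 of 39 Usp genes were higher in R5 by this measure, against 2.74% of all 9942 genes. Lower were 17 Ube2 genes (65.4%) and 31 Usp genes (79.5%), against 76.9% of all genes. The Ube2 median was -1.54 and the Usp median -1.60, close to the all-gene -1.65. Above the all-gene median, where 50.0% of all genes lie, were 17 of 26 Ube2 genes and 20 of 39 Usp genes. Higher in R5 by any amount were 3 of 26 Ube2 genes (Ube2s, Ube2b and Ube2e3) and 2 of 39 Usp genes (Usp32 and Usp44), against 7.63% of all genes. The counting interval of the ratio lay above 1 for these 3 Ube2 genes and for 1 Usp gene, Usp32. The share of all genes with such an interval was not computed, so nothing is read from these counts. With median scaling 7 Ube2 genes passed 2-fold upward and 2 downward, and 1 Usp gene upward and 2 downward, where all genes gave 9.42% and 13.7%. With globin genes removed 4 Ube2 genes and 1 Usp gene were higher, against 7.35%, and 5 and 6 lower, against 29.8%.

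R5 was also set against R3, so that R2 was not used, a comparison added after the values had been seen. The Ube2 median was -0.42 and the Usp median -0.86, with all genes at -0.47. Lower in R5 by 2-fold or more were 2 of 26 Ube2 genes, among them Ube2j1 at -1.02, and 13 of 39 Usp genes (33.3%), against 13.1% of all genes. The widest Usp differences were those of Usp9x at -1.77, Usp45 at -1.66, Usp1 at -1.50 and Usp49 at -1.45. Above the all-gene median, with 50.0% of all genes, lay 15 of 26 Ube2 genes and 12 of 39 Usp genes.

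**Figure D2:**
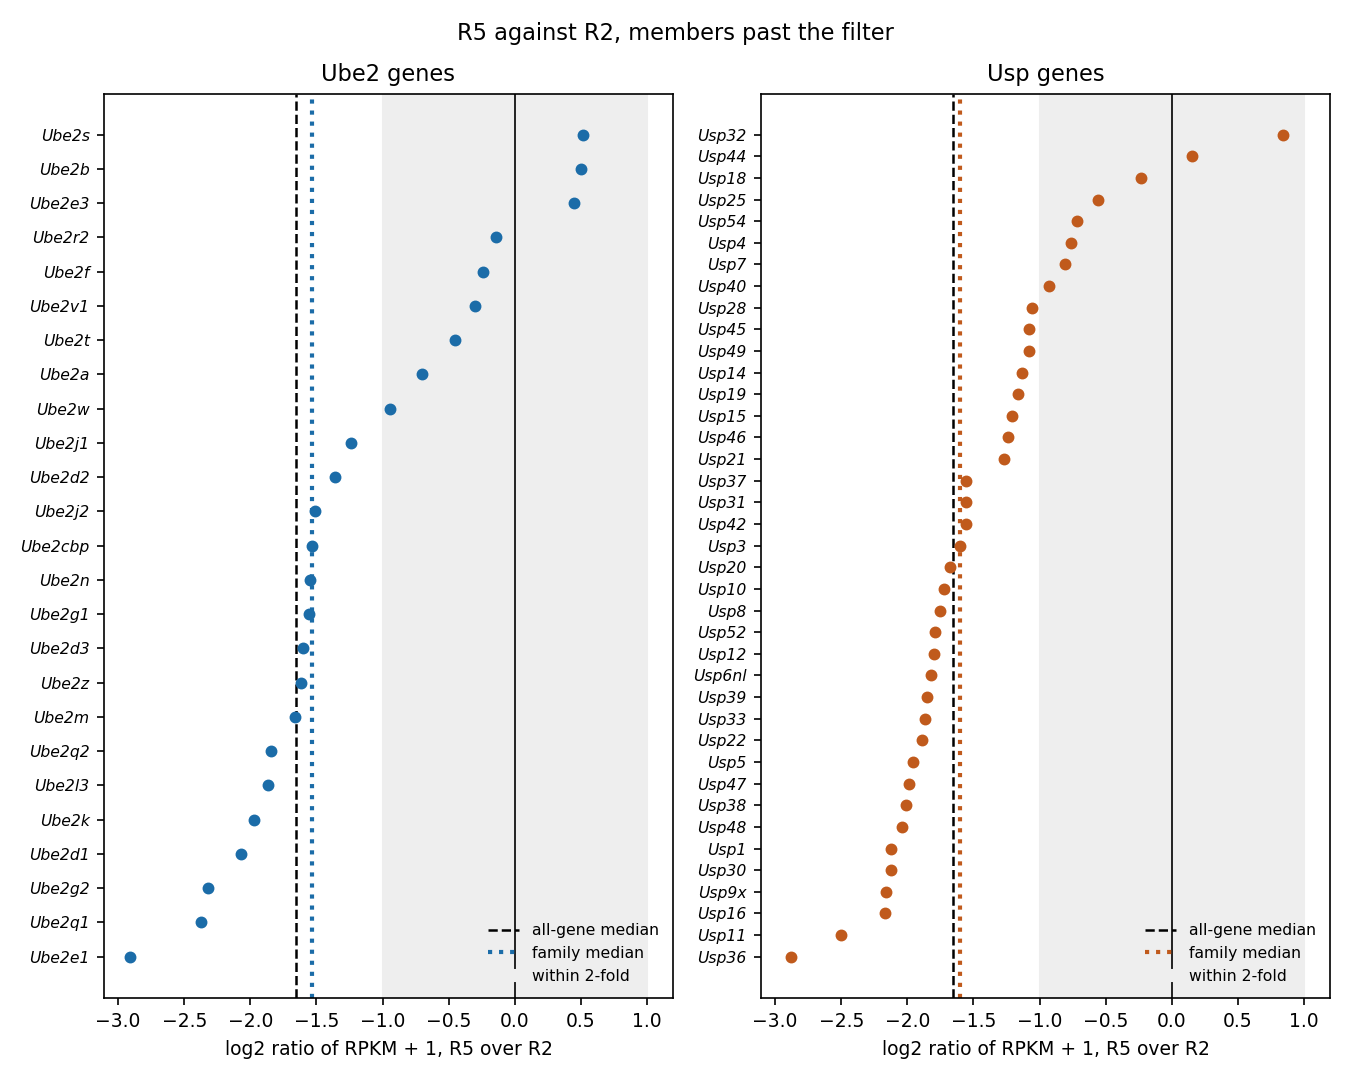
Log2 ratio of RPKM + 1 for R5 over R2 of members past 1 RPKM, with Ube2 genes on the left and Usp genes on the right, 1 point per gene and 1 library per population. Dashed lines mark the all-gene median of -1.65, dotted lines the family medians of -1.54 and -1.60, and the shaded band a ratio within 2-fold, with 1 Ube2 gene not drawn; Ube2s, Ube2b, Ube2e3, Usp32 and Usp44 lie right of 0.

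Among E2 enzymes of broad use, a few were at a like or higher level in R5 than in R2, while most lay near the median gene. Ube2e3 was at 40.2, 63.2, 55.6 and 55.2 RPKM from R2 to R5, while its paralog Ube2e1 was at 49.7, 5.97, 3.51 and 5.74. The pair thus began at like levels and then parted. R5 over R2 was 1.37-fold for Ube2e3 (counting interval 1.27 to 1.48) and 0.115-fold for Ube2e1 (0.0976 to 0.135), the lowest ratio among the Ube2 genes at -2.91. In R5 against R3 Ube2e1 stood at -0.05, so that its difference lay in the first step, in which the summed granulocyte markers were also lower (418 RPKM in R3 and 6025 in R2). Ube2r2, a relative of Cdc34 that works with cullin ligases, was at 17.2, 15.3, 22.8 and 15.5 RPKM in R2 to R5. Its R5 over R2 ratio was -0.14, which became 1.34 with median scaling.

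Ube2l3, which serves HECT and RING-between-RING ligases, was at 59.2, 28.1, 10.5 and 15.5 RPKM from R2 to R5. Ube2k, which builds Lys48 chains, was at 24.9, 12.1, 4.68 and 5.64 RPKM. Both lay a little under the all-gene median in R5 against R2, with ratios of -1.87 and -1.97. The promiscuous Ube2d enzymes differed in level, with Ube2d3 at 18.9, 9.25, 3.49 and 5.58 RPKM, Ube2d2 at 16.1, 8.02, 4.03 and 5.66, and Ube2d1 at 4.25, 0.57, 0.13 and 0.25. Ube2d1 was the low one in every library. Pseudogenes named after Ube2l3 and Ube2d are annotated, and their part in these values was not tested. Ube2g1, Ube2w and Ube2z ranged from 0.31 to 19.5 RPKM over the libraries, each highest in R2.

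The E2 enzymes of DNA repair, Ube2a, Ube2b and Ube2t, were 3 of 3 above the all-gene median in R5 against R2. So were 50.0% of all genes and 17 of 26 Ube2 genes, and nothing is read from this count. Ube2a (-0.70) and Ube2t (-0.45) were lower in R5 than in R2. Ube2b and Ube2a are the mammalian forms of yeast Rad6, which acts on histone H2B and on the replication clamp. Ube2b was at 8.35, 11.2, 20.9 and 12.2 RPKM from R2 to R5, and Ube2a at 10.4, 7.09, 3.31 and 5.98. Ube2b was highest in R4, the library in which Ube2a was lowest. R4 over R2 was 2.50-fold for Ube2b (2.02 to 3.13) and 0.319-fold for Ube2a (0.237 to 0.428). Ube2t, the E2 of the Fanconi anaemia pathway, was at 14.2, 13.6, 4.62 and 10.1 RPKM, lowest in R4.

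Ube2m and Ube2f both carry NEDD8, which activates cullin ligases, and they followed unlike patterns. Ube2m, the second highest member in R2, was at 172 RPKM there and at 73.1, 36.9 and 53.9 in R3, R4 and R5, a course close to the median gene (-1.66 in R5 against R2). Ube2f was at 24.0, 15.5, 27.6 and 20.2 RPKM, highest in R4. Its R5 over R2 ratio was -0.24 as deposited and 1.28 with median scaling.

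E2 enzymes of the endoplasmic reticulum, which mark misfolded proteins, were highest in R2, as were 86.2% of all genes. Ube2g2 was at 51.4, 16.1, 5.94 and 9.47 RPKM from R2 to R5, a ratio of -2.32 for R5 against R2. The membrane-bound Ube2j1 was at 11.6, 9.83, 4.21 and 4.34 RPKM and Ube2j2 at 19.1, 8.97, 3.95 and 6.03. For Lys63 chains, used in signalling and repair, Ube2v1 was at 11.8, 8.19, 7.38 and 9.39 RPKM, and its catalytic partner Ube2n at 3.06, 1.02, 0.54 and 0.39. The noncatalytic partner was thus the higher of the pair in every library, with the caution that a processed copy of Ube2n is annotated. Exons of Ube2v1 overlap those of Gm20431 by 1673 bases, so its level may hold reads of that gene. Of the Q branch, Ube2q1 was at 23.7, 5.37, 2.49 and 3.80 RPKM, a ratio of -2.37 in R5 against R2, and Ube2q2 at 7.54, 2.39, 0.54 and 1.39.

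Usp32, a large membrane-associated protease, ran against its family. It was at 7.40, 26.3, 32.3 and 14.0 RPKM from R2 to R5. R4 was the highest library and R2 the lowest. R3 over R2 was 3.56-fold (3.34 to 3.79), R4 over R2 4.36-fold (4.10 to 4.64) and R5 over R2 1.90-fold (1.77 to 2.04). Its place among all symbols went through ranks 6152, 1373, 624 and 1581 from R2 to R5. The R5 over R2 ratio was 0.84 as deposited, 2.23 with median scaling and 1.95 with globin genes removed.

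Among signalling enzymes, Usp25 was at 23.4, 38.8, 26.3 and 15.5 RPKM from R2 to R5, highest in R3. Usp4 was at 40.6, 32.6, 23.1 and 23.6 RPKM and its paralog Usp15 at 25.5, 22.6, 18.6 and 10.5. Usp10, which binds the stress granule protein G3bp1, was the highest Usp gene in R2 at 73.1 RPKM and was at 36.0, 17.5 and 21.6 in R3, R4 and R5. Usp25 and Usp4 lay above the all-gene median of R5 against R2, at -0.56 and -0.76, and Usp10 just under it, at -1.72. Usp47, a relative of Usp7, was at 15.6, 7.77, 3.17 and 3.19 RPKM. Usp18, which removes the interferon-induced modifier ISG15, stayed between 0.74 and 1.45 RPKM. The 10 interferon-induced genes examined beside it summed to 15.5, 17.6, 24.1 and 13.7 RPKM.

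Proteases of histones and of DNA repair were mostly lower in R5 than in R2, 8 of the 10 past 1 RPKM by 2-fold or more, a share near the 76.9% of all genes. Usp7, which acts on the p53 ligase Mdm2, was at 40.5, 49.4, 31.4 and 22.7 RPKM from R2 to R5, highest in R3. Usp36, a nucleolar enzyme, was at 20.8, 2.82, 1.13 and 1.97 RPKM and had the lowest Usp ratio for R5 against R2, -2.88 (0.0947-fold, 0.0824 to 0.108). Usp11 was at 14.0, 1.93, 0.83 and 1.64 RPKM. For both, nearly all of the difference lay between R2 and R3, and in R5 against R3 they were at -0.36 and -0.15, above the all-gene -0.47. Usp1, which with Wdr48 acts on the Fanconi protein FANCD2, was at 28.3, 18.0, 5.77 and 5.72 RPKM. Usp16, a histone H2A protease, was at 11.4, 4.26, 1.36 and 1.75 RPKM, and Usp22, the SAGA complex protease, at 10.1, 2.74, 1.08 and 1.98.

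The H2B protease Usp49 was at 7.68, 10.3, 2.61 and 3.12 RPKM from R2 to R5, a peak in R3. Usp21 was at 17.3, 11.6, 4.02 and 6.56 RPKM. Usp44, a mitotic checkpoint and histone protease, was at 0.28, 1.31, 0.46 and 0.42 RPKM. The R5 and R2 values rest on 21 and 16 estimated reads, and the counting interval of their ratio runs 0.723 to 2.98, so a difference was not detectable at this depth.

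At the proteasome, Usp14 was at 30.5, 20.8, 15.2 and 13.4 RPKM from R2 to R5. Usp5, which takes apart free ubiquitin chains, was at 68.8, 28.6, 12.1 and 17.0 RPKM. Usp14 was the higher of the pair in R4 and the lower in the other libraries. Among cell cycle and processing genes, Usp39, a splicing factor with an inactive protease fold, was at 49.6, 33.1, 12.3 and 13.0 RPKM, and Usp19, an enzyme anchored in the endoplasmic reticulum, at 41.2, 23.7, 18.9 and 17.8. Usp37 and Usp28 peaked in R2 at 5.71 and 2.11 RPKM.

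Of the proteases of endosomes, cilia and mitochondria, 7 of 8 were lower in R5 than in R2 by 2-fold or more, against 76.9% of all genes, and 2 of 8 lay above the all-gene median, against 50.0%. Usp9x, a protease of trafficking and signalling proteins, was at 8.04, 5.88, 2.20 and 1.02 RPKM from R2 to R5, lower at each step. Usp30, which opposes mitophagy at the mitochondrial outer membrane, was at 6.85, 0.91, 0.39 and 0.81 RPKM, and most of that difference lay between R2 and R3. Usp8, an endosomal enzyme, was at 11.0, 6.41, 3.31 and 2.55 RPKM. Usp46 was at 10.6, 8.05, 6.61 and 3.93 RPKM and its paralog Usp12 at 10.9, 4.35, 1.69 and 2.42, so that this pair started level and Usp46 was the higher in R3, R4 and R5.

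Ratios between related members need no scaling between libraries, and several differed widely between libraries; the pairs were chosen after the values had been seen. Ube2e3 over Ube2e1 was 0.809, 10.6, 15.8 and 9.61 from R2 to R5. Ube2b over Ube2a was 0.805, 1.58, 6.31 and 2.05, and Ube2f over Ube2m was 0.140, 0.212, 0.748 and 0.375. All 3 were lowest in R2 and highest in R4. The same order held for Usp4 over Usp11 (2.90, 16.9, 27.8 and 14.4), Usp7 over Usp47 (2.59, 6.36, 9.91 and 7.10) and Usp46 over Usp12 (0.977, 1.85, 3.91 and 1.62). It did not hold for every pair. Usp49 over Usp44 was 27.4, 7.85, 5.67 and 7.43, highest in R2 and lowest in R4, with Usp44 low throughout. Ube2q1 over Ube2q2 was 3.15, 2.25, 4.61 and 2.73, lowest in R3. Ube2d3 over Ube2d2 was nearly level, at 1.17, 1.15, 0.866 and 0.986. Usp15 over Usp4 was 0.629, 0.694, 0.807 and 0.443, lowest in R5. Reads of near-identical stretches may be split between paralogs by a counting method that no source used here gives.

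**Figure D3:**
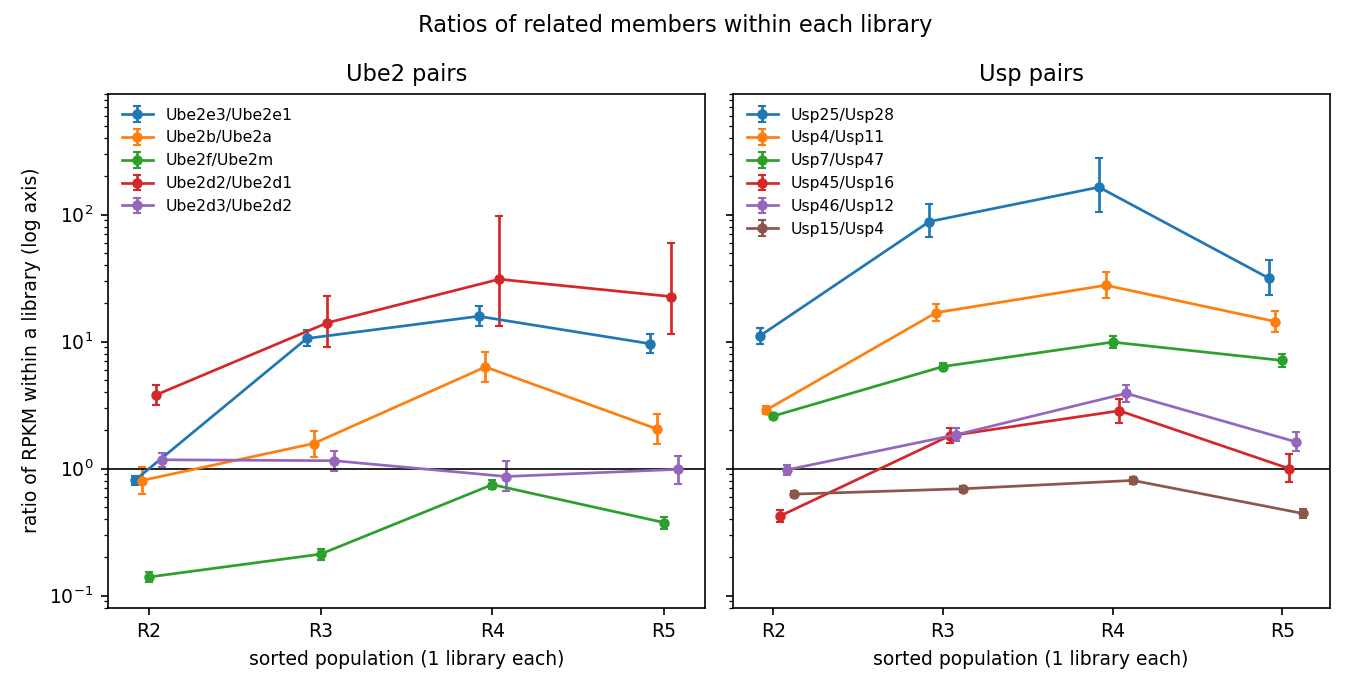
Ratio of RPKM between related members within each library, on a log axis, for 5 Ube2 pairs (left) and 6 Usp pairs (right), with 95% exact binomial intervals for counting error from estimated reads. Ube2e3 over Ube2e1 goes through 0.809, 10.6, 15.8 and 9.61 from R2 to R5, while Ube2d3 over Ube2d2 stays between 0.866 and 1.17.

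In R3 against R2, among genes past 1 RPKM, both families lay above the all-gene median, the Usp genes further. Lower in R3 by 2-fold or more were 11 of 26 Ube2 genes and 14 of 39 Usp genes, against 55.1% of all genes, and higher were 0 Ube2 genes and 1 Usp gene, Usp32, against 3.81%. The Ube2 median was -0.94 and the Usp median -0.66, where all genes stood at -1.09. Above the all-gene median lay 18 of 26 and 28 of 39, against 50.0% of all genes. The Ube2 median minus the Usp median was -0.28 as deposited. The counting error (95%, either side) for the difference of a typical gene of each family was 0.25. The difference was within it with median scaling and with globin genes removed (-0.22 in both), and with a filter of 5 RPKM (-0.17). That error is for single genes, and that of a difference of medians was not computed. The Usp median kept its place above that of all genes with median scaling (0.08 against -0.37) and with globin genes removed (-0.02 against -0.47), although its sign turned under median scaling. The counts also moved. With median scaling 3 Ube2 and 5 Usp genes were higher by 2-fold or more, against 8.38% of all genes, and 2 and 3 lower, against 18.0%. With globin genes removed 3 and 5 were higher, against 7.81%, and 3 and 3 lower, against 22.8%. The widest differences were those of Ube2e1 at -2.86 and Ube2q1 at -1.96, and of Usp36 at -2.51 and Usp11 at -2.35, and the highest among members that reached 5 RPKM were Ube2e3 at 0.64 and Ube2b at 0.38, with Usp32 at 1.70 and Usp25 at 0.71.

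In R4 against R3 both family medians lay just under that of all genes as deposited and with globin genes removed. With median scaling the Ube2 median (-0.0003) was above that of all genes (-0.065). With a filter of 5 RPKM the Usp median (-0.84) was above that of all genes (-0.92). As deposited, 10 of 26 Ube2 genes and 13 of 39 Usp genes were lower in R4 by 2-fold or more, against 32.1% of all genes. Higher by as much were 0 of either, against 0.493%. The medians were -0.89 for Ube2 genes, -0.84 for Usp genes and -0.77 for all genes, with 11 of 26 and 18 of 39 above the all-gene median, against 50.0%. The counts turned with scaling. With median scaling 4 Ube2 genes and 1 Usp gene were higher by 2-fold or more, against 4.26% of all genes, and 0 and 0 lower, against 0.382%. With globin genes removed 3 and 0 were higher, against 1.98%, and 0 and 1 lower, against 2.83%. The highest ratios as deposited were those of 3 Ube2 genes, with Ube2b at 0.85, Ube2f at 0.80 and Ube2r2 at 0.54. Ube2t was the lowest Ube2 gene at -1.38, and the lowest Usp genes were Usp49 at -1.64 and Usp1 at -1.49.

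In R5 against R4 the Usp median lay below the others. Of the Ube2 genes 21 of 26 were higher in R5 and 5 lower, as for most genes (76.2% of all genes were higher), while the Usp genes were split, 21 higher and 18 lower of 39. The Ube2 median was 0.30 and the Usp median 0.01, with all genes at 0.27. Above the all-gene median lay 14 of 26 Ube2 genes and 13 of 39 Usp genes, against 50.0%. Higher in R5 by 2-fold or more were 0 of both families, against 3.97% of all genes, and 1 Usp gene, Usp32, was lower by as much, at 14.0 RPKM in R5 and 32.3 in R4, against 0.604%. The next lowest was Usp45 at -0.83, while Usp21 at 0.59 and Usp11 at 0.53 led the Usp genes. Among Ube2 genes Ube2t at 0.99 and Ube2a at 0.70 were highest, and Ube2b at -0.73 and Ube2r2 at -0.53 lowest. The Usp median stood under the Ube2 median by 0.29 as deposited, and also with median scaling (-0.25 against 0.10 for Ube2) and with globin genes removed (-0.14 against 0.18). The difference was within 0.40, the counting error (95%, either side) for the difference of a typical Ube2 and a typical Usp gene, under each of these scalings. That error is for single genes, and the counting error of a difference of family medians was not computed. With median scaling 1 Ube2 and 5 Usp genes were lower by 2-fold or more, against 2.56% of all genes, and 0 and 0 higher, against 1.75%. With globin genes removed 0 and 2 were lower, against 1.58%, and 0 and 0 higher, against 2.98%.

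Transcript length moved with this last step. Across 9805 genes, which share these 2 libraries, Spearman's rho between the length of the longest coding transcript and the R5 over R4 ratio was -0.39, against -0.01 for R5 over R2. The median length was 4738 bases over 39 Usp genes and 2618 over 26 Ube2 genes. Among the longest genes, when all genes are split by length into 3 equal groups, the Usp median was -0.03 over 29 members, the Ube2 median 0.17 over 4 and the all-gene median 0.12. In the middle group the Usp median was 0.22 over 9 members, the Ube2 median 0.40 over 11 and the all-gene median 0.27. Among the shortest genes the Ube2 median was 0.31 over 11 members and the all-gene median 0.47, and the 1 Usp gene stood at -0.09. The part of length in the Usp course was not tested.

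**Figure D4:**
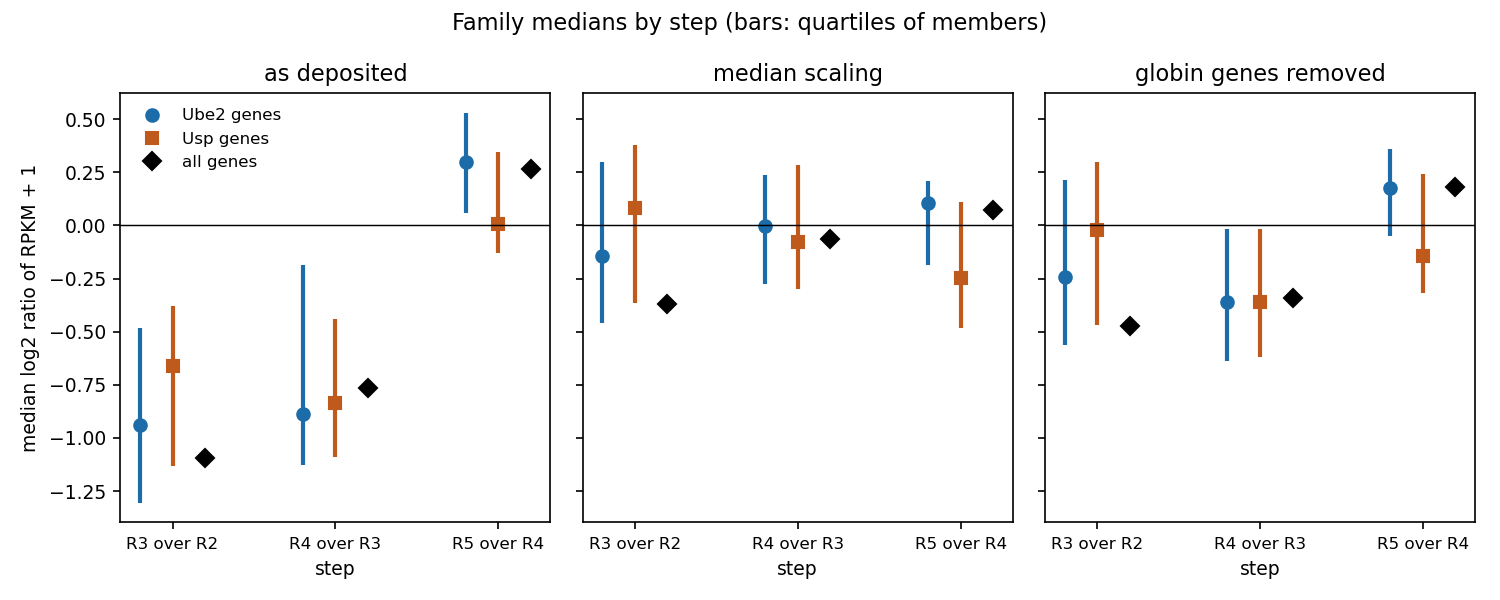
Median log2 ratio of RPKM + 1 at each step for Ube2 genes (circles), Usp genes (squares) and all genes (diamonds), as deposited, with median scaling and with globin genes removed; bars span the lower to upper quartile of a family's members, not a replicate error. In R3 over R2 the Usp median is the highest in each panel, and in R5 over R4 the lowest, at 0.01 as deposited against 0.30 for Ube2 genes.

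Promoters are shown, to set members of opposite course side by side, for the 3 members higher in R5 than in R2 that the sequence table holds and for Ube2e1, the Ube2 gene with the lowest ratio. Each is a window of 250 bases before to 50 after a start site, from RefSeq (GRCm38.p6), written 5′ to 3′ on the gene's strand, with matches to CCNCNCCC, a form of the CACC box that Krüppel-like factors such as KLF1 bind, in capitals on either strand. The windows are chr7:4812291-4812590 (minus strand) for Ube2s, chr11:52000737-52001036 (minus strand) for 1 of 2 starts of Ube2b, chr11:85139906-85140205 (minus strand) for Usp32 and chr14:18331795-18332094 (minus strand) for Ube2e1. These positions belong to GRCm38.p6 and not to the mm9 build of the deposited values.
Ube2s: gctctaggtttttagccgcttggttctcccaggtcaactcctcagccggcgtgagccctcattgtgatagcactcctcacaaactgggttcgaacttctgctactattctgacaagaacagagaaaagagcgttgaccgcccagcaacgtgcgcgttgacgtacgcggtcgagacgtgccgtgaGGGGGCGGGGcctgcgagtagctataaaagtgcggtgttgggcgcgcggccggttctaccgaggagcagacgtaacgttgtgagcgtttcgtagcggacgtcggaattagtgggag
Ube2b: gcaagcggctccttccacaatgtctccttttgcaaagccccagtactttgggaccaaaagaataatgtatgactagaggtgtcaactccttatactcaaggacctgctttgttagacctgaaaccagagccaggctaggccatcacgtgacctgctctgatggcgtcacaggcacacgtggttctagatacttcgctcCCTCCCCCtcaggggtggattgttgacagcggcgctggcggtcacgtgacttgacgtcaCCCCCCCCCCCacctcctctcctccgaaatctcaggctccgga
Usp32: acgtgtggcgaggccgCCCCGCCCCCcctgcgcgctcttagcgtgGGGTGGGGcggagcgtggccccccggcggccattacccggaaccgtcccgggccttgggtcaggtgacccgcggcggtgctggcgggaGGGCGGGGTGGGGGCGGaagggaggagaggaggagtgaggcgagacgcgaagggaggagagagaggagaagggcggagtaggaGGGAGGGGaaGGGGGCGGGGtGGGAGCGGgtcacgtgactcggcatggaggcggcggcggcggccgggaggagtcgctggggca
Ube2e1: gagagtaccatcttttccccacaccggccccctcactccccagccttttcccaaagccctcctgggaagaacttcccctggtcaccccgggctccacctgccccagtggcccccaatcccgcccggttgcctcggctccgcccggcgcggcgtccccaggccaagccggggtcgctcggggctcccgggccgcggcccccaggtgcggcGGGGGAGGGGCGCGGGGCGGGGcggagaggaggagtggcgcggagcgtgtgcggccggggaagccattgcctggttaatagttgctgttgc

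Overlapping matches to CCNCNCCC numbered 2 in the Ube2s window, 5 in that of Ube2b, 10 in that of Usp32 and 4 in that of Ube2e1, so the letters were found in the promoters of genes with either course. Counting every start of a gene, 19 of 21 Ube2 genes (90.5%) and 22 of 29 Usp genes (75.9%) with a window held them, against 72.6% of the 7988 genes past 1 RPKM and 51.9% of all 27025. The GATA factor motif AGATAA was found in 0 of 21 and 0 of 29, against 7.7% of genes past 1 RPKM. CCAAT was found in 5 of 21 and 7 of 29, against 43.7%, the E-box CACGTG in 3 and 5, against 12.5%, and CCGGAAGT, an ETS factor motif, in 2 and 4, against 10.2%. These are matches of letters in 300 bases and say nothing of binding.

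Counts of lower genes among the rest of the ubiquitin system are to be read against the 76.9% of all genes that were lower in R5 than in R2 by 2-fold or more, and those of higher genes against 2.74%. Of the genes that supply ubiquitin itself, Ubb was at 584, 548, 785 and 675 RPKM from R2 to R5. Of 8 E1 enzyme genes past 1 RPKM, 7 were lower by this measure, among them Uba1, the main ubiquitin E1, at 65.2 RPKM in R5 and 173 in R2. The 1 higher, named after its value was seen, was Ube1l, the E1 for ISG15 now called Uba7, at 58.4 RPKM in R5 and 16.1 in R2. Of 7 genes of E2 or E2-like proteins without a Ube2 symbol, 6 were lower by as much, among them Cdc34 at 78.6 RPKM in R5 and 210 in R2. Of 25 deubiquitinase genes of the UCH, OTU, Josephin and JAMM families, 18 were lower and 1 higher, shares near those of all genes, with a median of -1.54 beside the Usp -1.60. Members of these lists chosen after their values were seen were Otub2, the higher one, at 13.2 RPKM in R5 and 5.12 in R2, and Josd2, at 140, 317, 146 and 164 RPKM from R2 to R5. Of 6 cofactor genes of Usp enzymes, 6 were lower, among them Wdr48 at 4.56 RPKM in R5 and 21.0 in R2.

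Of the 4 Ube2 genes set aside, Ube2c, which starts chains for the anaphase-promoting complex, was at 131, 411, 407 and 446 RPKM from R2 to R5, and Ube2o, Ube2l6 and Ube2h ranged from 12.6 to 35.1 RPKM in R2 and from 79.0 to 343 in R5. All 4 were above R2 by 2-fold or more in R5, against 2.74% of all genes, but they had been set aside with their values known, so nothing is read from their contrast with the 26.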

How the data were processed

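Polyadenylated RNA of 4 sorted fetal liver populations was sequenced as 1 Illumina library each, per the labels' protocols. The authors deposited 1 RPKM value per gene symbol, with 2 decimals, and per the submitters' processing notes the build was mm9. The aligner, counter, annotation, gene length and strand setting are not named by any source used here. Libraries have no replicates, so no test was run.

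From these values, log2 ratios of RPKM + 1 were computed for the 9942 genes that reached 1 RPKM in some library, with Python 3.11.15, pandas 2.3.3 and scipy 1.17.1, and 2-fold or more was counted as higher or lower. The RPKM of 1 read over 1 base was read off the steps of genes among Rps27, Gapdh, Rps13, Rpl23a, Rps12 and Sumo2. Not all of them served in each library, and the number used was 5, 3, 2 and 3 from R2 to R5. The value was 43.6, 39.0, 36.5 and 48.3 in the same order, and gives about 23000000, 25600000, 27400000 and 20700000 reads. Steps this coarse mean that the length behind the values of those genes was not that of their transcript. The length used for each member is not known. Reads per gene are estimates from the shortest coding transcript of GENCODE vM21, matched for 19211 symbols and all 79 members. Intervals cover counting error only. Median scaling used 2745 genes with at least 5 RPKM in every library. Where globin genes were removed, the remaining RPKM of each library was scaled to the same sum. Promoter windows matched 61 of 79 members.

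The members, gene lists, pairs and motifs were chosen with earlier results of these data known. Named genes were, per family and with at least 5 RPKM somewhere, the 5 highest means, the 6 highest and 6 lowest R5 over R2 ratios and, for each step, the 2 at either end, with members of the role lists and the 4 genes set aside. Some genes that the rule or the lists take are not reported here. The steps were checked on simulated reads, drawn from R2 levels for both libraries with known folds set for some genes. The simulation held no change in globin share or in other cell types between libraries, so it does not bear on these. Alternatives were other pseudocounts, filters and scalings.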

Additional observations from a re-analysis of the deposited data

How the results depend on the processing

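As deposited means a pseudocount of 1 RPKM, a filter of 1 RPKM and no rescaling. A filter of 5 RPKM moved none of the 16 values listed here by more than a typical member's counting error, or 1.5 times for counts. The same held on leaving out the member under 30 estimated reads in every library (Ube2w), and on leaving out Ube2cbp, Usp6nl and Usp52. The place of a family beside the all-gene median is not among those values. It did change with the filter of 5 RPKM in R4 against R3. There the Usp median (-0.84) lay above that of all genes (-0.92), as did 19 of 33 Usp genes. No paired analysis was possible because each population has 1 library.

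Rescaling moved the values most. With median scaling, R5 against R2 had an Ube2 median of -0.15 and a Usp median of -0.38, with 7 and 1 members at least 2-fold higher and 2 and 2 lower. R3 against R2 then had medians of -0.14 and 0.080, R4 against R3 of -0.0003 and -0.079 (a difference of 0.079, with its sign turned), and R5 against R4 a Usp median of -0.25. With globin genes removed, R5 against R2 had medians of -0.44 and -0.65, with 4 and 1 members higher and 5 and 6 lower, R3 against R2 had -0.24 and -0.022, R4 against R3 had -0.36 and -0.36, and the Usp median of R5 against R4 was -0.14. The all-gene median moves with these, and both rescalings kept the Usp median above it in R3 against R2 and below it in R5 against R4.

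With a pseudocount of 5 RPKM, medians were -0.82 and -0.95 for R5 against R2 (10 Ube2 and 18 Usp members lower), -0.58 and -0.46 for R3 against R2, and -0.46 and -0.40 for R4 against R3. With 0.1 RPKM the Usp medians were -2.01 for R5 against R2 and -1.12 for R4 against R3, where the difference of the families was 0.051. The Ube2 median of R4 against R3 was then -1.07, above the all-gene -1.11. With no filter the Usp median of R5 against R2 was -1.24 over all 49 symbols and the difference -0.20. Both families then lay below the all-gene median, taken over 19564 symbols, in R5 against R2 and in R3 against R2. In R3 against R2 the medians were -0.78 for Ube2 and -0.60 for Usp genes, against -0.17 for all genes. Above that all-gene median were 7 of 30 Ube2 and 15 of 49 Usp symbols. With R3 in place of R2 the medians were -0.42 and -0.86, their difference 0.44, and 2 Ube2 and 13 Usp members were lower. With Ube2c, Ube2o, Ube2l6 and Ube2h counted in, 4 Ube2 members were higher in R5 against R2 and the difference for R4 against R3 was 0.10. The differences of the family medians as deposited were 0.06 for R5 against R2 and -0.05 for R4 against R3, too near 0 to give a direction. The 0.29 for R5 against R4 is within 0.40, the counting error either side for a typical gene of each family. That is not the error of a difference of medians, which was not computed. The cause of these moves was not tested. Setting R3 in place of R2, counting the 4 genes in and leaving members out were chosen after seeing the data.

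Under 30 estimated reads back Ube2w, Ube2d1, Ube2cbp, Usp44, Usp28, Usp20, Ube2q2 and Usp18 in at least 1 library.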
